A study of Mus musculus with 48 samples.

Results

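Chromatin accessibility was compared between transitional (Ttran) and progenitor (Tprog) tumour-infiltrating CD8 T cells that carried the OTC control guide and were recovered from young mice. All libraries of those 2 groups were taken, 3 of Ttran and 2 of Tprog, which makes 5 of the 48 libraries of the series, and all 53868 peaks were tested. Open chromatin was read by ATAC-seq, which relies on the Tn5 transposase to place sequencing adapters where DNA is accessible. The transferred CD8+ T cells were OT-1 cells of the CD45.1 background that express Cas9, and their transgenic T cell receptor recognizes an ovalbumin peptide. They had been transduced with a lentivirus carrying a single guide RNA and an ametrine reporter, and ametrine+ cells were transferred into hosts 1 day before inoculation with B16-OVA, a mouse melanoma line that expresses ovalbumin. Cells were sorted from the tumours on day 15. Every library analysed here therefore comes from transduced cells with Cas9, the OTC libraries included. What the OTC guide targets was not given in the sources used here, and OTC serves only as the group's name. Guides against Zfp219 and Dusp5, and aged hosts, supply the further libraries set beside this comparison.

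The states were defined by 2 surface proteins. Tprog was gated Slamf6+Tim-3-, Ttran Slamf6+Tim-3+ and Tterm, the terminal state, Slamf6-Tim-3+. Tim-3 is the product of Havcr2, so the Havcr2 and Slamf6 peaks are a check of the sort and not a finding. Each library was a pool of cells from independent mice, with 5000 to 50000 cells per combination of guide and state. Host ages are not stated beyond young and aged, and which mice entered which pool is not given.

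Progenitor exhausted CD8 T cells keep the transcription factor TCF-1, encoded by Tcf7, renew themselves and give rise to the other states in chronic infection and in tumours. Cells that leave the progenitor state pass through a transitional, effector-like state in which effector molecules such as granzyme B and interferon gamma are made, and many proceed to a terminal state with high levels of inhibitory receptors. Each step is accompanied by opening and closing of enhancers, the distal elements on which transcription factors of the TCF, AP-1, RUNX, T-box and NFAT families act. In bulk ATAC-seq, a weaker peak in fewer open cells and a weaker peak in every cell cannot be told apart.

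The Tprog libraries held 18493537 and 15520213 reads in peaks and the Ttran libraries held 12629361 to 29942755. Pearson's r of log2 values across peaks was 0.961 between the Tprog libraries and 0.962 to 0.973 between Ttran libraries, against 0.924 to 0.937 between the 2 states. Of the 8 T cell markers, Cd3e, Cd3d, Cd3g, Cd8a and Cd247 each had a peak at the start site. The peak set is common to all 48 libraries, so the presence of a peak does not show which libraries are open there. No peak was assigned to Foxp3 of the regulatory T cell list, to Cd79a, Cd79b and Ms4a1 of the B cell list, to Csf1r, Lyz2 and Adgre1 of the myeloid list or to Tyr, Dct and Tyrp1 of the melanoma list. Start-site peaks were present at Cd68, Cebpa and Itgam of the myeloid list and at Mitf of the melanoma list. Marker peaks of other cells that were present were summed. The 11 NK marker peaks held 3641 to 3703 normalized reads in Tprog and 2970 to 3181 in Ttran, and the 9 melanoma marker peaks 3724 to 3757 and 3263 to 3411. For the 15 myeloid marker peaks the sums were 3005 to 3043 and 2869 to 2927, and for the 9 B cell marker peaks 781 to 805 and 590 to 745. Each of these 4 sums was lower in every Ttran library, while the CD4 T cell sum overlapped between the groups. The 62 T cell marker peaks were lower too, with 26194 to 26420 in Tprog and 24847 to 25081 in Ttran. Their part in the results was not tested.

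Accessibility differed at 9098 peaks, 16.9% of those tested, in limma's moderated test on log2(normalized reads + 1) with an adjusted p under 0.05 over all peaks. Of these, 4887 peaks (9.07%) were higher in Ttran and 4211 (7.82%) were lower. The median size of a called difference was 0.86 on the log2 scale, and 1787 rises and 1951 falls reached a log2 difference of 1. Rises and falls were about equally frequent. The count rests on both Tprog libraries: it was 5709 without Tprog library 1 and 5278 without Tprog library 2, where the remaining Tprog library was assumed to vary like the other groups. The scatter of all peaks shows called differences at weak and at strong peaks. Called or not, 11634 peaks (21.6%) were higher and 12673 (23.5%) lower in every Ttran library than in every Tprog library.

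**Figure D1:**
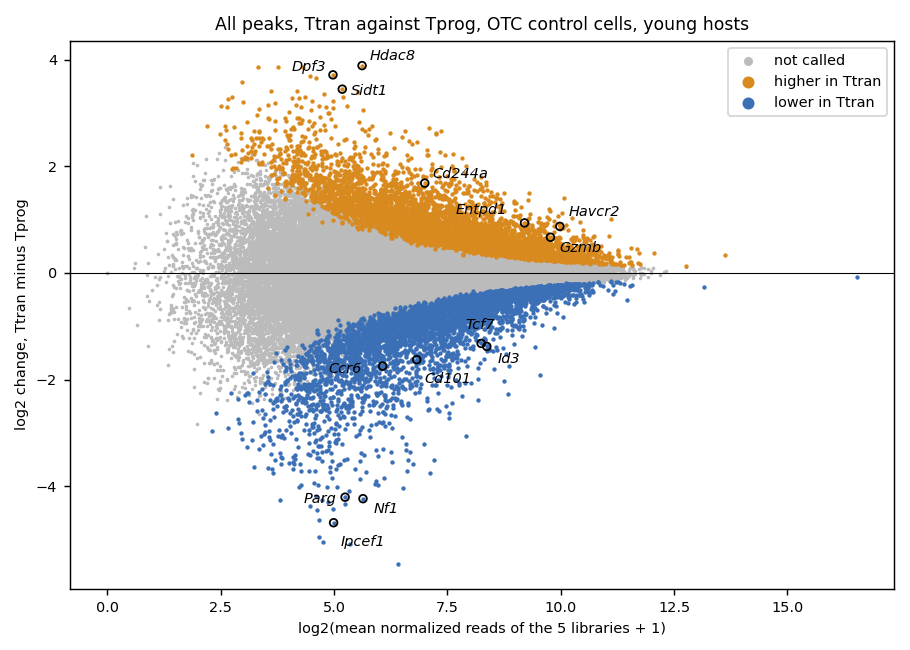
Each point is 1 of 53868 peaks, with log2(mean normalized reads over the 5 libraries + 1) on the x axis and the log2 difference, Ttran minus Tprog, on the y axis. Orange points (4887) were called higher in Ttran and blue points (4211) lower. Circles mark the 8 start-site peaks with printed promoters and 6 of the peaks with the largest differences, which lie at lower read numbers than the start-site peaks.

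Differences were more frequent away from start sites. Among the 9073 peaks that overlap an annotated transcription start site, 304 rose and 426 fell, so 8.05% were called. Among the 44795 peaks that do not, 4583 rose and 3785 fell, and 18.7% were called. Start-site peaks are stronger, with a median of 460 normalized reads against 69.5, so both kinds were compared at similar levels. Under 100 normalized reads, where 26793 of the other peaks lie, 7.72% of start-site peaks and 12.2% of other peaks were called. The shares were 7.71% and 27.6% between 100 and 300, 7.76% and 28.8% between 300 and 1000, and 9.95% and 32.8% above 1000. The balance of rises and falls varied with the level: away from start sites 1501 rose and 1756 fell under 100 normalized reads, and at start sites 77 rose and 46 fell above 1000, each the reverse of its pooled total.

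The start-site peaks of 8 listed genes are described first, since there the promoter sequence can be set beside the accessibility. They are the 4 largest rises and the 4 largest falls among the 15 rises and 15 falls at start sites of listed genes with a mean of at least 50 normalized reads, a choice made after the values were seen.

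Cd244a encodes 2B4, a SLAM-family receptor found on exhausted T cells. Its start-site peak (chr1:171558851-171559676) held 44.4 and 65.0 normalized reads in Tprog, 159, 191 and 176 in Ttran, and 173, 213 and 189 in Tterm. Every Ttran library was above both Tprog libraries, by 1.68 ± 0.23 (SE) on the log2 scale (limma, adjusted p = 5.73e-09). Entpd1, which encodes the ectonucleotidase CD39, had a start-site peak (chr19:40659633-40662398) with 421 and 340 normalized reads in Tprog and 721, 742 and 715 in Ttran, a log2 difference of 0.94 ± 0.11 (SE, limma, adjusted p = 2.72e-11). Gzmb encodes granzyme B, the cytotoxic protease. The peak at its start (chr14:56261701-56263110) rose from 680 and 611 in Tprog to 996, 1091 and 992 normalized reads in Ttran, a log2 difference of 0.67 ± 0.09 (SE, limma, adjusted p = 2.42e-09). Havcr2 itself, the sorting marker, had 656 and 688 normalized reads at its start (chr11:46452770-46455391) in Tprog and 1223, 1279 and 1196 in Ttran, so the peak separated the groups as the gate did.

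The falls at start sites were larger on the log2 scale than the rises of Entpd1, Gzmb and Havcr2. Id3 encodes an inhibitor of E-protein transcription factors that marks memory and progenitor cells. Its start-site peak (chr4:136143607-136144833) held 522 and 525 normalized reads in Tprog, 204, 205 and 193 in Ttran and 140, 141 and 132 in Tterm. All 3 Ttran libraries lay below both Tprog libraries and above all Tterm libraries, and the Ttran to Tprog difference was -1.38 ± 0.17 (SE) in log2 (limma, adjusted p = 2.64e-10). At Tcf7, a start-site peak (chr11:52281225-52284085) held 455 and 490 normalized reads in Tprog and 172, 203 and 191 in Ttran, a log2 difference of -1.32 ± 0.17 (SE, limma, adjusted p = 2.72e-09). Ccr6, a receptor for the chemokine CCL20, had 140 and 91.5 normalized reads at its start (chr17:8241816-8242710) in Tprog and 42.4, 29.7 and 28.5 in Ttran, with a log2 difference of -1.75 ± 0.30 (SE, limma, adjusted p = 3.32e-06). Cd101, a surface glycoprotein that others have used to mark terminally exhausted cells, fell at its start site (chr3:101029146-101030285) from 204 and 175 normalized reads in Tprog to 53.0, 69.6 and 60.2 in Ttran. Its level in Tterm, 60.0, 59.8 and 47.8, was close to that in Ttran.

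The promoters of these genes, the 250 bases before an annotated start site inside the peak, were read from RefSeq (GRCm38.p6). They are printed 5′ to 3′ on the strand of the gene, so that the start site follows the last base. Matches on either strand to 5 short motifs are in capitals: CTTTGA (TCF/LEF), TGANTCA (AP-1), TGTGGT (RUNX), TCACAC (T-box) and GGAAAA (NFAT). TGANTCA reads as the same pattern on both strands. No printed match overlaps another. The Entpd1 and Id3 windows begin before their peaks, and the match marked in Entpd1 lies outside its peak. The first set holds the promoters under peaks that were higher in Ttran.
Cd244a, chr1:171558943-171559192, + strand: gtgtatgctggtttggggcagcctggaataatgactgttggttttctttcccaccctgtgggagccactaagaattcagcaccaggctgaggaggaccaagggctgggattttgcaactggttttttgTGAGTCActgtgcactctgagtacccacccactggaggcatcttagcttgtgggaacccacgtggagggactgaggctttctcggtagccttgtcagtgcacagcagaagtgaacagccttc
Entpd1, chr19:40659520-40659769, + strand: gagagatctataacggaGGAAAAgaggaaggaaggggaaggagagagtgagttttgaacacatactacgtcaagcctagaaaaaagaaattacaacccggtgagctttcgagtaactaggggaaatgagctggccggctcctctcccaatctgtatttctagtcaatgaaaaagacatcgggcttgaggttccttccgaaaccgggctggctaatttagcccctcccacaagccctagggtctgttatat
Havcr2, chr11:46454681-46454930, + strand: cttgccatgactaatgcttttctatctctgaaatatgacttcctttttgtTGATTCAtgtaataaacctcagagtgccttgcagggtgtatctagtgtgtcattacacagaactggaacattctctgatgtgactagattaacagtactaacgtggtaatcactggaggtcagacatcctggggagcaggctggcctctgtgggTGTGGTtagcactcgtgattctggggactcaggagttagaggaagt
Gzmb, chr14:56262335-56262584, - strand: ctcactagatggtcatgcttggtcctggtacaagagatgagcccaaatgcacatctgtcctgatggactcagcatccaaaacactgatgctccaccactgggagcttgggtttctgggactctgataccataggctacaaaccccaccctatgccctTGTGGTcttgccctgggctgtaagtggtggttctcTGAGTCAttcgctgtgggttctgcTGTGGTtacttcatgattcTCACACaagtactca

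The second set holds the promoters under peaks that were lower in Ttran.
Ccr6, chr17:8242276-8242525, + strand: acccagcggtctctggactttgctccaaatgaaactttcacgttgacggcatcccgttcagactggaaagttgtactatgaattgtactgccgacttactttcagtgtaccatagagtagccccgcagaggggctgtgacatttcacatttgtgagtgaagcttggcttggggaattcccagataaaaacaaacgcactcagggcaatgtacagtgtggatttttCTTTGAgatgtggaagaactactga
Cd101, chr3:101029554-101029803, - strand: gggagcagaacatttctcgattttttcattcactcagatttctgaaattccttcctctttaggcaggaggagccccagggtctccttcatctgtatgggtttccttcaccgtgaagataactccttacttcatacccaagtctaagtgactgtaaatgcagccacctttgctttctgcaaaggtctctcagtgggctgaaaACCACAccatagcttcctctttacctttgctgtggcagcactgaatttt
Id3, chr4:136143572-136143821, + strand: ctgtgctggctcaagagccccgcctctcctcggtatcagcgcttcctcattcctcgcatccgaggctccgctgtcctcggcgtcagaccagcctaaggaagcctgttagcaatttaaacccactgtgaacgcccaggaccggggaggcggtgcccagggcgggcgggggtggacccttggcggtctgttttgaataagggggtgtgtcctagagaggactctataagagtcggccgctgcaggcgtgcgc
Tcf7, chr11:52282596-52282845, - strand: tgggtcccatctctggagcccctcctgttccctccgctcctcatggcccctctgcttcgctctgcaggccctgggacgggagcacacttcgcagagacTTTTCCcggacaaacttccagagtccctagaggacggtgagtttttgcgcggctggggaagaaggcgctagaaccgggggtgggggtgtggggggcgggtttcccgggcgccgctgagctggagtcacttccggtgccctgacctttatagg

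An AP-1 match stood in 3 of the 4 promoters that opened, 122 bases before the start in Cd244a, 200 in Havcr2 and 58 in Gzmb, and in none of the 4 that closed. The Gzmb window also held RUNX matches 93 and 34 bases before the start and a T-box match 15 bases before it. Havcr2 had a RUNX match 46 bases and Cd101 one 49 bases before the start. The TCF/LEF letters appeared only in Ccr6, 25 bases before the start, and the NFAT letters in Entpd1 and Tcf7. The Id3 window held none of the 5 motifs.

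The same search over all promoter windows gives the frequencies against which to read these matches. TGANTCA was present in 9.62% of the 395 windows whose start site lay in a peak that rose in Ttran, in 4.76% of the 567 in a peak that fell and in 3.55% of the 11244 in a peak that was not called. It was present in 6.75% of all 32851 windows, many of which lie under no peak. For the other 4 motifs the shares in risen and fallen windows lay within 2 percentage points of each other: TCF/LEF 9.62% and 9.70%, RUNX 11.9% and 10.9%, T-box 9.11% and 10.4%, NFAT 14.4% and 16.05%. Median GC content was 60.0% in risen, 60.8% in fallen and 61.6% in uncalled windows. Windows of alternative starts of a gene overlap, so they are not independent, and a match is not a binding site.

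Peaks of stem-like genes were called lower in Ttran more often than higher. At least 1 peak was lower at 8 of 10 transcription factor genes and at 9 of 11 surface and chemokine genes. At least 1 was higher at 5 of the former and 2 of the latter. Among all 14957 genes with a peak, 2481 had a lower and 2672 a higher peak. Genes differ in how many peaks they have, which these gene counts do not allow for. Of the 132 peaks assigned to 10 stem-like transcription factor genes, 42 fell and 12 rose, with a median log2 difference of -0.28 against -0.02 over all peaks. Of the 110 peaks of 11 stem-like surface and chemokine genes, 38 fell and 3 rose, with a median of -0.29. The 2 shares that fell, 31.8% and 34.5%, compare with 7.82% of all peaks. The gene lists were chosen with earlier results of these data known, so the shares are only set side by side.

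Id3 was the most uniform of the factors, with all 7 of its peaks lower in Ttran. Bach2, a repressor that restrains effector differentiation, had 18 of 35 peaks lower and 1 higher, which made it the gene with most falling peaks in the data. At Tcf7 6 of 12 peaks fell and none rose, and at Satb1, a chromatin organizer, 5 of 9 fell. The strongest Tcf7 peak (chr11:52299318-52300198), 15935 bases from the gene body, was not among them. It held 1226 and 1134 normalized reads in Tprog and 1050, 1187 and 1155 in Ttran, whose range overlaps, with a log2 difference of -0.06 ± 0.08 (SE, limma, adjusted p = 0.67), while Tterm was lower than Ttran there at 856, 819 and 893. Not every stem-like factor followed: Lef1 had 1 of 16 peaks higher and none lower, Foxo1 had 3 of 19 higher and none lower, and Myb had 6 of 14 higher and 2 lower.

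Among surface genes, Ccr7, the receptor that guides naive and memory cells into lymph nodes, had 10 of 11 peaks lower. Its strongest peak (chr11:99154026-99155586) held 1187 and 1070 normalized reads in Tprog, 837, 790 and 834 in Ttran and 609, 650 and 567 in Tterm, a stepwise order without overlap between the states. The Ttran to Tprog difference was -0.46 ± 0.09 (SE) in log2 (limma, adjusted p = 4.04e-05). Cxcr5, the receptor for the B cell follicle chemokine CXCL13, fell at 5 of 9 peaks. The strongest (chr9:44526245-44527374) held 930 and 928 normalized reads in Tprog and 501, 522 and 546 in Ttran, with a log2 difference of -0.83 ± 0.10 (SE, limma, adjusted p = 9.34e-11). Xcl1, a chemokine that attracts cross-presenting dendritic cells, fell at 8 of 18 peaks. Slamf6, the gene of the other sorting marker and a protein that both sorted states carry, fell at 4 of 6 peaks, but its strongest peak did not pass the test at 390 and 370 normalized reads in Tprog against 302, 294 and 338 in Ttran (adjusted p = 0.15, limma). Il7r (5 peaks) and Cxcr3 (5 peaks) had no called peak.

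**Figure D2:**
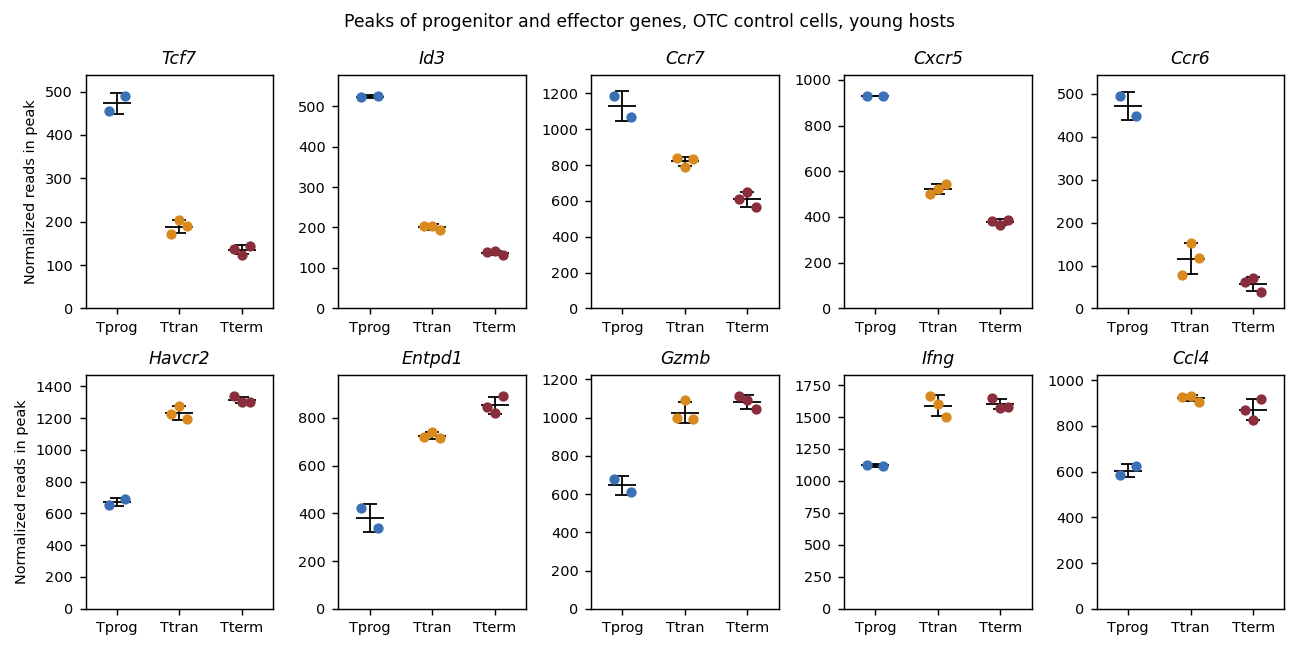
Normalized reads (y axis, from 0) in 10 peaks for each OTC library from young hosts, in Tprog (2 libraries), Ttran (3) and Tterm (3). Points are libraries, and the horizontal line and bars give the mean and SD. Tcf7 and Id3 are start-site peaks and the others are the strongest peak of the gene. In the upper row every Ttran library lies below every Tprog library, and in the lower row above. Of all peaks, 23.5% lie below and 21.6% above in this way.

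Peaks of effector genes were called higher more often than lower, though not at every gene. At least 1 peak was higher at 12 of 22 surface, cytokine and cytotoxicity genes and at 6 of 9 transcription factor genes with a peak. At least 1 was lower at 4 of the former and 5 of the latter. Among all 14957 genes with a peak, 2672 had a higher and 2481 a lower peak. The 22 genes of effector surface molecules, cytokines and cytotoxicity had 141 peaks, of which 52 rose and 9 fell, with a median log2 difference of 0.27. That is 36.9% of peaks higher against 9.07% of all peaks. The 143 peaks of the effector transcription factor genes included 33 that rose (23.1%) and 8 that fell (5.59%, against 7.82% of all peaks), with a median of 0.09. These lists, too, were chosen with earlier results of these data known.

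The chemokine cluster of Ccl3, Ccl4 and Ccl5 was open further at all of its peaks: 3 of 3, 5 of 5 and 7 of 7 rose. At the Ccl4 start site (chr11:83648298-83649947) the values were 583 and 626 normalized reads in Tprog and 925, 930 and 906 in Ttran, a log2 difference of 0.61 ± 0.09 (SE, limma, adjusted p = 4.36e-07). The strongest Ccl3 peak (chr11:83639015-83641476) held 1396 and 1398 normalized reads in Tprog and 2007, 2005 and 1977 in Ttran. In both peaks Ttran was at the level of Tterm, which held 870, 827 and 917 at Ccl4 and 1994, 1813 and 1930 at Ccl3.

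Ifng, the interferon gamma gene, had 15 of its 27 peaks higher and none lower, a count that only Rbpj matched. Its strongest peak (chr10:118468895-118471093) lies 23001 bases from the gene body and held 1128 and 1115 normalized reads in Tprog, 1664, 1606 and 1497 in Ttran and 1651, 1573 and 1581 in Tterm. The log2 difference between Ttran and Tprog was 0.50 ± 0.07 (SE, limma, adjusted p = 4.37e-08). Il2 moved the other way, with 2 of 6 peaks lower and none higher. At the strongest Il2 peak (chr3:37172987-37175105), 47033 bases from the gene, Tprog held 729 and 594 normalized reads, Ttran 388, 332 and 383 and Tterm 284, 237 and 294, and the log2 difference was -0.84 ± 0.12 (SE, limma, adjusted p = 3.09e-08). Tnf had 2 peaks and neither was called.

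Among cytotoxic and killer receptor genes, Gzmb rose at 5 of 9 peaks and Prf1, which encodes perforin, at 2 of 6. The Prf1 start-site peak held 1254 and 1395 normalized reads in Tprog and 1671, 1679 and 1718 in Ttran. Klrg1, an inhibitory receptor of effector cells, rose at 6 of 9 peaks. The strongest of them (chr6:122293488-122294736) went from 373 and 415 normalized reads in Tprog to 724, 755 and 672 in Ttran, a log2 difference of 0.86 ± 0.10 (SE, limma, adjusted p = 6.66e-11). Klrk1 (7 peaks), Klrd1 (6 peaks) and Klrc1 (4 peaks), other killer lectin genes, had no called peak, and Cx3cr1, a receptor of effector cells in blood, had 2 of 5 peaks lower.

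Effector transcription factors were not uniform: of the 9 genes with a peak, 6 had a higher peak, 5 had a lower one and 4 had both. Prdm1, which encodes the repressor BLIMP-1, rose at 11 of 22 peaks, Id2 at 6 of 9 and Zeb2 at 9 of 21, with 1 Zeb2 peak lower. The strongest Prdm1 peak (chr10:44400135-44401483), 35691 bases from the gene, held 749 and 682 normalized reads in Tprog and 974, 977 and 1010 in Ttran. The strongest peak assigned to Id2 (chr12:25188707-25191091), 92615 bases from it, held 1739 and 1688 in Tprog and 2114, 2064 and 2151 in Ttran, a log2 difference of 0.30 ± 0.06 (SE, limma, adjusted p = 9.10e-05). Tbx21, which encodes T-bet, had no called peak among 9, and the values of its strongest were 1138 and 1167 in Tprog and 1205, 1222 and 1418 in Ttran (adjusted p = 0.23, limma). Bhlhe40 likewise had none among 13.

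Exhaustion genes moved in both directions, with 19 of 126 peaks higher and 19 lower and a median of -0.10. That is 15.1% each way, against 9.07% and 7.82% of all peaks. The rises lay at Entpd1 (7 of 12 peaks), Havcr2 (4 of 5), Cd244a (2 of 4), Ctla4 (2 of 12), Tox2 (2 of 7), Nr4a3 and Tigit. The falls included 9 of 27 peaks of Tox, the factor that establishes the exhausted state, and 4 of 6 of Nr4a1, an orphan receptor induced by T cell receptor signals. Pdcd1, which encodes PD-1, had no called peak among 9, and Lag3 none among 4. The strongest Pdcd1 peak, at the start site (chr1:94051833-94056880), held 2977 and 2990 normalized reads in Tprog and 3246, 3262 and 3079 in Ttran (log2 difference 0.10 ± 0.05 SE, adjusted p = 0.18, limma). The strongest Lag3 peak held 1125 and 1164 in Tprog and 1099, 1022 and 1080 in Ttran (adjusted p = 0.42, limma).

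**Figure D3:**
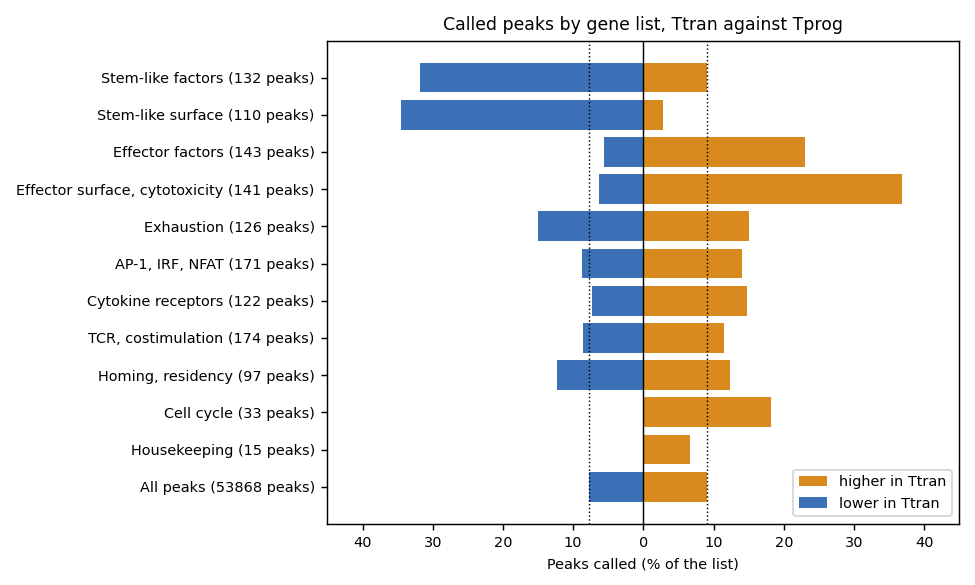
Share of peaks called higher in Ttran (orange, to the right) and lower (blue, to the left) for 11 gene lists and for all peaks, in percent of the peaks of the list. Dotted lines mark the shares over all peaks, 9.07% higher and 7.82% lower. The stem-like lists extend to the left and the effector lists to the right, while the exhaustion list has equal bars. The genes of the sorting markers are included: Havcr2 gives 4 of the 19 exhaustion rises and Slamf6 4 of the 38 stem-like surface falls.

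Of the 171 peaks of AP-1, IRF and NFAT genes, 24 rose (14.04%) and 15 fell (8.77%), against 9.07% and 7.82% of all peaks. Batf3 rose at 6 of 9 peaks and Irf8, a factor of effector CD8 T cells, at 5 of 18, while Jun fell at 3 of 8. The strongest Irf8 peak (chr8:120715184-120717074), 19284 bases from the gene, held 1461 and 1293 normalized reads in Tprog and 1816, 1884 and 1777 in Ttran, a log2 difference of 0.41 ± 0.07 (SE, limma, adjusted p = 8.47e-07). Fosb, Fosl1, Fosl2, Junb and Jund had no called peak.

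Cytokine receptor genes had 18 of 122 peaks higher (14.8%) and 9 lower (7.38%). Il21r rose at 4 of 8 peaks and Il2rb, the beta chain of the IL-2 and IL-15 receptors, at 3 of 5, while Il6ra fell at 3 of 8. Of 174 peaks of T cell receptor signalling and costimulation genes, 20 rose (11.5%) and 15 fell (8.62%), near the 9.07% and 7.82% of all peaks. Cish, a SOCS-family inhibitor of cytokine and T cell receptor signalling, rose at 5 of 6, with 1007 and 1087 normalized reads at its start site (chr9:107295469-107297412) in Tprog, 1399, 1388 and 1383 in Ttran and 1160, 1191 and 1150 in Tterm. Ttran was the highest of the 3 states there, by 0.41 ± 0.07 (SE, adjusted p = 7.85e-06) over Tprog and by 0.25 over Tterm in log2 (adjusted p = 0.0055, both limma). Themis, a T cell signalling adaptor, rose at 5 of 19 peaks, and its strongest held 471 and 501 in Tprog and 718, 746 and 708 in Ttran.

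Homing and residency genes were even, with 12 of 97 peaks (12.4%) in each direction. Ccr6 fell at 5 of 6 peaks. At the strongest (chr17:8233162-8235080) Tprog held 496 and 449 normalized reads, Ttran 78.6, 152 and 117 and Tterm 62.6, 70.0 and 37.7, and the difference between Ttran and Tprog was -2.07 ± 0.22 (SE) in log2 (limma, adjusted p = 7.72e-13). Ccr8, a chemokine receptor of skin-homing and tumour T cells, fell at 2 of 3 peaks, from 1403 and 1386 to 1086, 1021 and 943 normalized reads at its start site. Cd44, the hyaluronan receptor of activated cells, rose at 7 of 18 peaks and fell at 1. Itgae, which encodes CD103, rose at 2 of 7. Its strongest peak held 822 and 859 normalized reads in Tprog, 1051, 1084 and 1064 in Ttran and 803, 835 and 889 in Tterm, so that only Ttran was high.

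Cell cycle genes had 6 of 33 peaks higher (18.2%) and none lower, against 9.07% and 7.82% of all peaks. Of these 6 peaks, 3 belonged to the inhibitor Cdkn1a and 1 each to Mki67, Ccna2 and the inhibitor Cdkn2a. Of the 15 housekeeping peaks 1 was higher (6.67%), at Actb, and none lower. The genes targeted in other libraries of the series were also listed. Dusp5, a nuclear ERK phosphatase, had 8 of 17 peaks higher, and Zfp219, a zinc-finger protein, had 1 of 4 lower.

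Beyond the lists, the genes with most rising peaks included, after Ifng, Rbpj, the DNA-binding partner of Notch, with 15 of 33 higher, the G-protein regulator Rgs3 with 13 of 31 and the kinase Cdk6 with 12 of 23. The genes with most falling peaks after Bach2 were Asap1 with 14 of 30, the quiescence factor Foxp1 with 14 of 46, Rad51b with 13 of 43 and Dapl1 with 12 of 14. Among these genes Bach2 and Foxp1 also had 1 and 3 rising peaks.

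The largest rises were at peaks with few reads in Tprog, which a ranking by log2 difference favours. The filter on the mean over the 5 libraries can be met through Ttran alone. A peak in Hdac8 (chrX:102382987-102384218), a histone deacetylase gene, held 4.30 and 4.28 normalized reads in Tprog, 73.7, 75.0 and 83.4 in Ttran and 89.1, 75.5 and 80.4 in Tterm, a log2 difference of 3.89 ± 0.35 (SE, limma, adjusted p = 7.89e-16). A peak in Ksr1, a scaffold of the MAP kinase pathway, rose from 21.5 and 42.8 to 215, 188 and 212 normalized reads. The start site of Gzmf, a granzyme gene next to Gzmb, went from 5.01 and 7.70 in Tprog to 43.3, 46.9 and 54.9 in Ttran and 117, 96.7 and 105 in Tterm. The other 7 of the 10 largest rises were in Dpf3, Sidt1, Tmem120b, Nbas, Wscd2, Rilpl1 and Ttc28, with log2 differences from 2.69 to 3.71. For Sidt1 the size rests on Tprog library 1, which held 0 normalized reads against 21.4 in Tprog library 2: the log2 difference was 3.45, and 1.20 with an adjusted p of 0.15 (limma) without that library.

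The largest falls were at peaks with few reads in Ttran, which the same ranking favours. A peak in Ipcef1 (chr10:7040954-7041744) held 83.8 and 62.5 normalized reads in Tprog and 3.09, 4.69 and 0 in Ttran, a log2 difference of -4.68 ± 0.83 (SE, limma, adjusted p = 8.46e-06). In Unc80, 158 and 147 normalized reads in Tprog compared with 7.06, 17.2 and 7.39 in Ttran, and in Rbm33 188 and 248 with 13.7, 12.5 and 22.2. Nf1, Parg, Gm7244, Tlk1, Bicra, Pter and Thrap3 held the others of the 10 largest falls, between -4.23 and -3.87. Each of these 10 falls kept its call when any of the 5 libraries was left out.

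The differences of Ttran and of Tterm from Tprog share the Tprog libraries, and the peaks were chosen by the first, so the values are only set side by side. Of the 4887 peaks higher in Ttran, the median log2 difference from Tprog was 0.81 in Ttran and 0.73 in Tterm. For the 4211 lower peaks the medians were -0.94 in Ttran and -1.10 in Tterm. Direct comparison of Ttran with Tterm called 4515 peaks (8.38%), 2705 higher (5.02%) and 1810 lower (3.36%) in Ttran. Ttran was called different from the midpoint of Tprog and Tterm at 3574 peaks (6.63%), with 2351 above it (4.36%) and 1223 below (2.27%). Without Ttran library 1, 2 or 3 the midpoint count was 2202, 2018 or 2116.

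A smaller set was highest or lowest in Ttran. Of the 53868 peaks tested, Ttran was called above both neighbours at 364 and below both at 125. Both comparisons use the same Ttran libraries, so a deviation in these moves both differences the same way. These 2 counts fell by more than 1.5 times without some libraries: the first to 242 without Tprog library 2, 209 and 204 without Ttran libraries 1 and 2, and 225 and 234 without Tterm libraries 2 and 3. The second fell to 63 and 57 without Tprog libraries 1 and 2, and to 79, 82 and 76 without Tterm libraries 1, 2 and 3. An intronic or exonic position was not resolved for these peaks. A peak in Pxn, which encodes the focal adhesion protein paxillin (chr5:115497034-115497335), held 9.31 and 11.98 normalized reads in Tprog, 44.6, 76.6 and 70.7 in Ttran and 25.3, 19.7 and 29.8 in Tterm. A peak 5917 bases from Batf3 (chr1:191114860-191115576) held 82.4 and 46.2 in Tprog, 155, 158 and 118 in Ttran and 52.5, 50.3 and 81.0 in Tterm. Without Tprog library 2 the Batf3 difference from Tprog was 0.78 in log2 and missed the threshold (adjusted p = 0.16, limma). The start-site peak of Rnf32 was the reverse, with 106 and 68.4 in Tprog, 31.3, 40.7 and 23.2 in Ttran and 45.5, 75.5 and 49.5 in Tterm. Pxn and Rnf32 kept the call against Tprog without any of the 5 libraries, and the other 8 peaks named by the same rule (Orm1, Batf3, Ltbp1, Mical3, Cdc42bpa, F13a1, Tmie and Cstad) did not.

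To place each library between the states without using its own values, peaks were chosen in the Zfp219 and the Dusp5 libraries from young hosts. With both guides the group means of Tterm and Tprog differed there by at least 1 in log2, in the same direction. No test was applied to this choice. There were 2018 such peaks higher and 3487 lower in Tterm. The median log2 value of the first set less that of the second was -1.34 and -1.40 in the Tprog libraries, 0.86, 0.88 and 0.83 in the Ttran libraries and 1.58, 1.59 and 1.59 in the Tterm libraries. The 3 Ttran libraries lay close together and nearer to Tterm than to Tprog on this scale. In aged hosts the same difference was -1.57 and -1.60 in Tprog, 0.28 and 0.18 in Ttran and 1.04 and 1.05 in Tterm. In each of the 3 states, Ttran included, both aged libraries were below all young ones. The peaks were chosen in young hosts only, which can widen the young range.

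**Figure D4:**
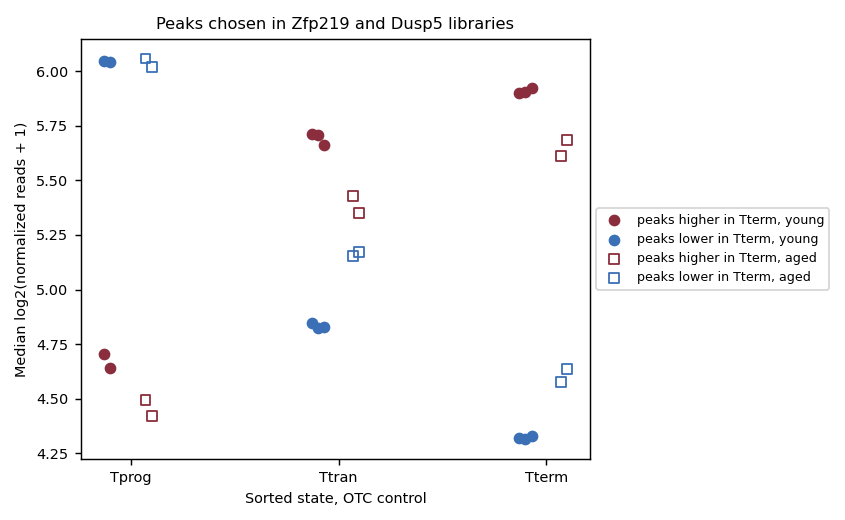
Median log2(normalized reads + 1) in each OTC library over 2018 peaks higher (red) and 3487 peaks lower (blue) in Tterm, chosen in the Zfp219 and Dusp5 libraries of young hosts. Filled circles are young hosts and open squares aged hosts, by sorted state on the x axis. In young Ttran the red medians lie above the blue ones by 0.83 to 0.88, and in young Tprog below them by 1.34 and 1.40.

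The same contrast in libraries outside the 5 compared ones gave many of the same calls. Every contrast uses a shared estimate of each peak's spread from all 48 libraries, so these are not separate tests. With the Zfp219 guide in young hosts, 2947 of the 4887 rises were called higher in Ttran (60.3%, and 46.8% of the 6296 rises called there), against 11.7% of all peaks, and 8 were called lower. Of the 4211 falls, 2733 were called lower (64.9%, and 43.0% of the 6357 there), against 11.8% of all peaks. With the Dusp5 guide the counts were 2819 rises (57.7%, and 52.9% of 5330) and 2583 falls (61.3%, and 51.1% of 5054), against 9.89% and 9.38% of all peaks. In aged hosts with the OTC guide, 2632 rises (53.9%, and 48.9% of 5384) and 1539 falls (36.5%, and 40.9% of 3760) were called the same way, against 9.99% and 6.98% of all peaks. Called in all 3 of these other contrasts were 1624 of the 4887 rises (33.2%) and 1116 of the 4211 falls (26.5%). The share of all peaks called in all 3 was not computed, so these 2 counts have no reference. All 8 start-site peaks described above were called in the same direction in each of these contrasts, with sizes that varied. Id3 differed by -1.50, -1.27 and -1.44 in log2 with the Zfp219 guide, the Dusp5 guide and aged hosts. Cd244a, at 1.68 in young OTC libraries, differed by 1.52, 1.31 and 0.96. Both peaks were chosen by their young OTC difference, which favours larger values there, so the sizes are only set side by side.

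**Figure D5:**
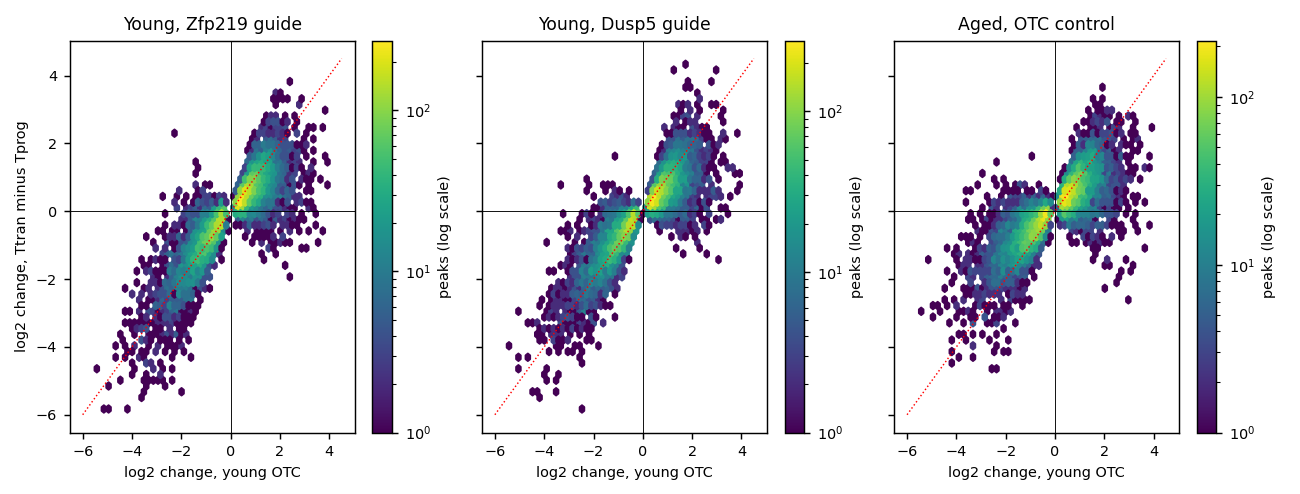
Log2 difference between Ttran and Tprog at the 9098 called peaks, young OTC libraries on the x axis against 3 sets of other libraries on the y axis (Zfp219 guide and Dusp5 guide in young hosts, OTC in aged hosts). Colour gives the number of peaks per cell on a log scale and the dotted line marks equal differences. Most peaks lie in the lower left and the upper right. The median of the 4887 rises was 0.57, 0.56 and 0.58 on the y axis against 0.81 on the x axis. The peaks were chosen by their x-axis difference, which favours larger values there, so these medians are only set side by side.

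The difference between contrasts was tested directly as an interaction. Between young and aged hosts, 628 peaks were called (1.17%), 201 (0.373%) with a more positive change in young hosts and 427 (0.793%) with a more positive change in aged hosts. This split was not stable: after quantile normalization 250 peaks were called, 140 and 110, and without aged Ttran library 1 it was 678, 353 and 325. Without aged Ttran library 2 the split was 244 and 288. The count fell to 355 and 287 without young Tprog libraries 1 and 2 and to 256 and 338 without aged Tprog libraries 1 and 2. Aged and young libraries may differ in more than host age, and these cannot be told apart. With the Zfp219 guide 117 peaks were called (0.217%), 68 (0.126%) with a more positive change in OTC libraries and 49 (0.091%) with a less positive one. With the Dusp5 guide 3 peaks were called (0.00557%), Marchf7 and Vps50 with a more positive change in OTC libraries (0.00371%) and Aqr with a less positive one (0.00186%). At an unadjusted p under 0.05 the Dusp5 difference had 4456 peaks in limma and 4890 in edgeR, which called 6 after adjustment. The Zfp219 count was 73 and 47 without young OTC Tprog libraries 1 and 2, 60 and 76 without young OTC Ttran libraries 1 and 2, 199 and 42 without Zfp219 Tprog libraries 1 and 2 and 220 without Zfp219 Ttran library 3. The Dusp5 count ran from 0 to 101 with single libraries left out, and was highest without Dusp5 Tprog library 1.

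The largest of the named differences by host age was at a peak inside Thy1 (chr9:44046603-44047436), the gene of a T cell surface glycoprotein. In young hosts it held 403 and 326 normalized reads in Tprog and 418, 439 and 422 in Ttran, which did not pass the test (log2 difference 0.23, adjusted p = 0.24, limma). In aged hosts it held 135 and 122 in Tprog and 2944 and 3051 in Ttran, so that the changes differed by -4.30 ± 0.19 (SE) in log2 (limma, adjusted p = 2.75e-34). A peak 510 bases from Adh6a (chr3:138331644-138332318) fell in young hosts from 310 and 327 normalized reads to 106, 88.3 and 98.2. It held 382 and 392 in Tprog and 409 and 405 in Ttran of aged hosts, a difference of -1.77 in log2 (limma, adjusted p = 8.10e-05), and fell with both other guides in young hosts, by 1.76 with Zfp219 and by 1.45 with Dusp5. A peak in Ppp2r2c, a regulatory subunit gene of protein phosphatase 2A, went from 12.9 and 23.96 to 63.1, 79.7 and 39.1 in young hosts and held 46.4 and 63.9 in Tprog and 18.1 and 28.7 in Ttran of aged hosts. These 3 differences kept their call when any library of the 4 groups was left out.

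At the strongest peaks of Ccl3 and Dusp5, singled out after their values were seen, the rise was smaller in young than in aged hosts. The changes differed by -0.42 and -0.49 in log2 (adjusted p = 0.0085 and 0.0051, limma). At Ccl3 aged Tprog held 1033 and 1071 normalized reads, below the young Tprog libraries, and aged Ttran 2082 and 1931, on both sides of the young ones. At Dusp5 (chr19:53460413-53462012) young Tprog held 1202 and 1215 and young Ttran 1469, 1516 and 1443, while aged Tprog held 1191 and 1264 and aged Ttran 2028 and 2178. After quantile normalization neither difference passed, with adjusted p of 0.21 and 0.19 (limma). Without aged Tprog library 1 the adjusted p was 0.069 for Ccl3 and 0.061 for Dusp5, and without aged Ttran library 1 the Ccl3 difference also missed the threshold (adjusted p = 0.063).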

How the data were processed

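The series comprises 48 ATAC-seq libraries, which were grouped by their titles, with A and Y read as aged and young hosts. The deposited table holds a normalized signal per peak and library, the read count divided by a library factor, as its values show: with a tolerance of 0.01, 100% of the values in each library were whole multiples of what 1 read is worth, so whole reads were recovered. The submitters' processing notes name Bowtie2 2.2.9, Picard 2.8.0, MACS2 2.1.1, SAMtools 1.3.1, DESeq2 1.28.1 and the build mm10, without their roles. Whether duplicates were removed, insertions shifted or peaks called on pooled libraries was not given in the sources used here, and each could change the reads behind a weak peak.

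Values were analysed as log2(value + 1) with limma 3.58.1 in R 4.3.3, with a mean per group over all 48 libraries, a variance trend, Benjamini-Hochberg adjustment over 53868 peaks and a threshold of 0.05. On this scale the change of weak peaks is understated. The script was tested on simulated data. Alternatives were a pseudocount of 8, leaving out the weakest 25% of peaks, median-of-ratios and quantile scaling, the compared groups alone, library weights, a replicate block, edgeR 4.0.16 and DESeq2 1.42.0 on the recovered reads, and single libraries left out. P-values measure the spread between pools of cells. Replicates differed by more than counting noise (chi-square per degree of freedom 4.46 in Tprog, 3.84 to 4.14 in Ttran). Each was counted as a sample, although this check cannot show that the pools are independent.

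Peaks were tied to the protein-coding gene of the RefSeq table (GRCm38.p6) whose body they overlap, or else to the nearest within 100 kb (51109 peaks). Promoter sequences came from the RefSeq promoter table, which held 17492 of 21900 genes. Coordinates are given as in the authors' file. Exons and introns were not resolved.

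Named peaks were the 10 largest called rises and falls whose libraries do not overlap, with a mean of at least 30 normalized reads and a gene within 10 kb. Added to these were the strongest peak of each listed gene, the 5 genes with most called peaks each way, and, with the same filters, the 5 peaks each way that Ttran set apart most from both other states and the 5 each way with the largest called difference between host ages. The start-site peaks with printed promoters and the 3 peaks of the Dusp5 difference were added after values were seen. A few items that these rules name are not reported here. Members and gene lists were chosen with earlier results of these data known.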

Additional observations from a re-analysis of the deposited data

Results flagged for a closer look

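The change from Tprog to Ttran differed between young OTC libraries and other libraries by a direct test of the difference (limma interaction, adjusted p under 0.05 over all peaks) at 628 peaks for aged hosts, 117 for the Zfp219 guide and 3 for the Dusp5 guide.

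Between host ages, 5 named peaks changed more positively in young hosts. Dpf3 differed by 3.39, Sbspon by 3.37, Apol7e by 3.13, Ppp2r2c by 2.89 and Cdh22 by 2.73 in log2. Another 4 changed more positively in aged hosts: Thy1 differed by -4.30, Prkcb by -4.10, Glis1 by -1.90 and Adh6a by -1.77. The Prkcb peak fell in young hosts from 59.5 and 92.4 normalized reads in Tprog to 6.18, 10.2 and 2.11 in Ttran and held 13.6 and 15.97 and then 19.6 and 23.9 in aged hosts. Sbspon and Apol7e were not called within young hosts (adjusted p = 0.095 and 0.13, limma). Thy1, Adh6a and Ppp2r2c passed in every alternative that gave a value and with each library left out, and the other 6 lost the call in at least 1 of these.

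For the Dusp5 guide, Marchf7 differed by 2.17, Vps50 by 2.05 and Aqr by -2.95 in log2. At Vps50 young OTC libraries held 12.9 and 35.1 normalized reads in Tprog and 102, 127 and 169 in Ttran. None of these 3 calls held with a pseudocount of 8, with the compared groups alone, with library weights or with the replicate block.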

How the results depend on the processing

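The count of 9098 called peaks stayed between 8021 and 11574 under the 9 alternatives other than leaving out a library, and 8863 of those peaks were called in the same direction by edgeR and 9016 by DESeq2. With single libraries left out it ran from 5278 to 7657. The midpoint count was 6007 with the compared groups alone, 5794 with library weights, 5503 with edgeR (4289 above and 1214 below) and 5756 with DESeq2, and 2018 to 2990 with libraries left out. Ttran was above both neighbours at 620, 665, 772 and 659 peaks under the same 4 alternatives (204 to 252 with libraries left out), and below both at 266 with the groups alone, 296 with weights and 266 with DESeq2 (57 to 116 with libraries left out). The difference by host age was called at 250 peaks after quantile normalization and 1261 with DESeq2, and at 256 to 678 with libraries left out. For the Zfp219 guide the counts were 3 with the groups alone, 40 with weights and 324 with DESeq2, and 42 to 220 with libraries left out, while edgeR split its 117 peaks into 83 and 34. For the Dusp5 guide they were 0 with a pseudocount of 8, the groups alone, weights or the replicate block, 15 without the weakest 25% of peaks, 19 after quantile normalization, 6 with edgeR and 110 with DESeq2, and 0 to 101 with libraries left out. The causes were not tested. Of 66 called peaks named for the main comparison, none reversed direction, 3 lost the call under an alternative and 13 with a library left out. The tests of single named differences between host ages or guides under these alternatives were chosen after seeing the data.

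Same-numbered Tprog and Ttran libraries did not deviate together (correlation of deviations 0.0014 and 2e-04), so the numbers were not taken as pairs. With the replicate block 8021 peaks were called, 7729 of them shared with the 9098. Among the peaks named for the main comparison the block ended the calls of F13a1 (adjusted p = 0.063, limma) and Mical3 (adjusted p = 0.11, limma). With the compared groups alone the call of Cdc42bpa ended (adjusted p = 0.067, limma).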
